A study of Mus musculus with 18 samples.

Results

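Endothelial cells of the mouse heart were followed over the first 4 weeks after birth, on postnatal days 4, 7, 14 and 28 (P4, P7, P14, P28). They were taken from single-cell RNA-seq of nanowell chips (ICELL8), in which each well held 1 dispensed cell and each captured RNA molecule was counted by its unique molecular identifier (UMI). A well was chosen as endothelial by measured values. It had at least 500 genes, its UMIs of Pecam1, Kdr, Egfl7, Esam, Cdh5 and Fabp4 outnumbered those of the fibroblast, macrophage and mural marker sets, these UMIs made up at least 0.3% of its non-mitochondrial UMIs, and at most 2 of the endocardial genes Npr3, Cytl1, Tmem100, Plvap and Hmcn1 were detected. The rule kept 2574 of 10602 wells with 500 genes on 9 chips. These were 251 and 266 wells on the P4 chips, 464 and 397 at P7, 297 and 152 at P14, and 319, 221 and 207 on replicates 2, 4 and 6 of P28.

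All mice were of the strain labelled Myh6/Esr1-Tomato without a knockdown, in which tamoxifen given through the mother in the first days of life switches on the red reporter TDtomato. The Cre of this strain is driven by Myh6, a gene of cardiomyocytes (CMs), and was not designed to mark endothelial cells. Both P4 chips carried wells of mice named M1 and M2, and so did both P7 chips. Chips of these stages therefore cannot be taken as separate mice, and p-values over chips measured only the spread between chips. Each P14 chip held 1 mouse, P28 replicates 2 and 6 named 2 animals each, and replicate 4 named none. Hearts were digested with a kit at P4 and P7 and by perfusion at P14 and P28. A difference between P7 and P14 therefore cannot be told apart from the change of digestion. The same holds for P28 against P4 and for the early chips (P4 and P7) against the later ones (P14 and P28). The P14 chips carried a CM fraction and a non-CM (NCM) fraction, and the well reports of P28 replicates 2 and 6 named NCM preparations. The endothelial wells of both P4 chips had Xist and no Ddx3y UMI, while those of the P7 chips had the Y-linked Ddx3y, so sex and stage cannot be told apart in that pair. Later chips were mixed, with Xist mainly on P14 replicate 1 and P28 replicates 4 and 6. Ddx3y was found mainly on P14 replicate 2 and P28 replicate 2, so the other comparisons were not balanced for sex either.

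The lining of heart vessels is built mainly of capillary endothelium, which hands fatty acids from blood to the muscle. After birth this capillary bed grows with the myocardium by division and sprouting, and growth then slows. Capillary endothelial cells are known for lipid handling genes such as Cd36 and Gpihbp1, growing tip cells for genes such as Apln and Esm1, and arterial cells for connexins and Notch targets.

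The label of the wells was checked on 12 endothelial genes that the rule did not use (Cldn5, Tie1, Ly6c1, Flt1, Cd93, Emcn, Eng, Cd34, Tek, Icam2, Gpihbp1 and Ptprb). Their summed share was a median of 0.486 to 1.13% of UMIs per chip in the chosen wells and 0.0150 to 0.239% in the other wells. On every chip the chosen wells were higher. Of the genes that chose the wells, Fabp4, a fatty acid binding protein of capillaries, was seen in 91.8 to 100% of the wells per chip, and Cdh5, the cadherin of endothelial junctions, in 56.5 to 90.2%. Levels of single genes are given as CPM, UMIs of the gene relative to all non-mitochondrial UMIs of the chip's chosen wells after TMM scaling. Cdh5 stood at 716 and 740 CPM at P4, 964 and 842 on the P7 chips, 1017 and 1249 at P14, and 1022, 1063 and 1413 at P28, values that describe the choice and were not tested. The 105 wells with a summed share from 0.3 to 0.33% held the 12 other genes at a median of 0.430%, and the 108 wells from 0.27 to 0.3% held them at 0.400%. Wells with 2 endocardial genes numbered 146 and those with 3, left out by the rule, 56. The 7 lymphatic markers, all detected, summed to 0.110 and 0.00975% of UMIs on the P4 chips, 0.0410 and 0.00679% on the P7 chips, 0.00269 and 0.00621% at P14, and 0.0171, 0.0476 and 0.0160% at P28. Prox1, the regulator of lymphatic identity, was seen in 0.483 to 7.14% of wells per chip, Lyve1, a hyaluronan receptor also known from macrophages, in 0.862 to 17.9%, Flt4, the VEGF-C receptor, in 4.04 to 12.1%, and the chemokine Ccl21a in 0 to 14.0%. The higher sum of P4 replicate 1 came mostly from Ccl21a, seen in 3.59% of its wells.

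RNA of other cells was present in the chosen wells and moved with stage. All 10 CM markers were detected, and their median share was 1.97 and 2.36% on the P4 chips, 1.71 and 2.01% on the P7 chips, 1.70 and 2.38% on the P14 chips, and 0.259, 0.126 and 0.346% at P28. At P14 it was 3.39 and 3.19% in wells of the CM fraction and 0.380 and 0.147% in those of the NCM fraction. The 5 erythroid markers summed to 0.0852 to 0.993% of UMIs at P4 and P7, 20.02 and 6.56% at P14, and 3.15 to 13.3% at P28. The 6 macrophage markers of the rule summed to 0.00366 to 0.0167% at P4 to P14 and to 0.0977 to 0.219% at P28, and the 6 fibroblast markers to 0.0184 to 0.120% and 0.0894 to 0.317%. Summed UMIs per chip ranged from 1179397 to 9515601, and well barcodes recurred from chip to chip (992 chosen wells shared theirs with a chosen well of another chip).

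**Figure D1:**
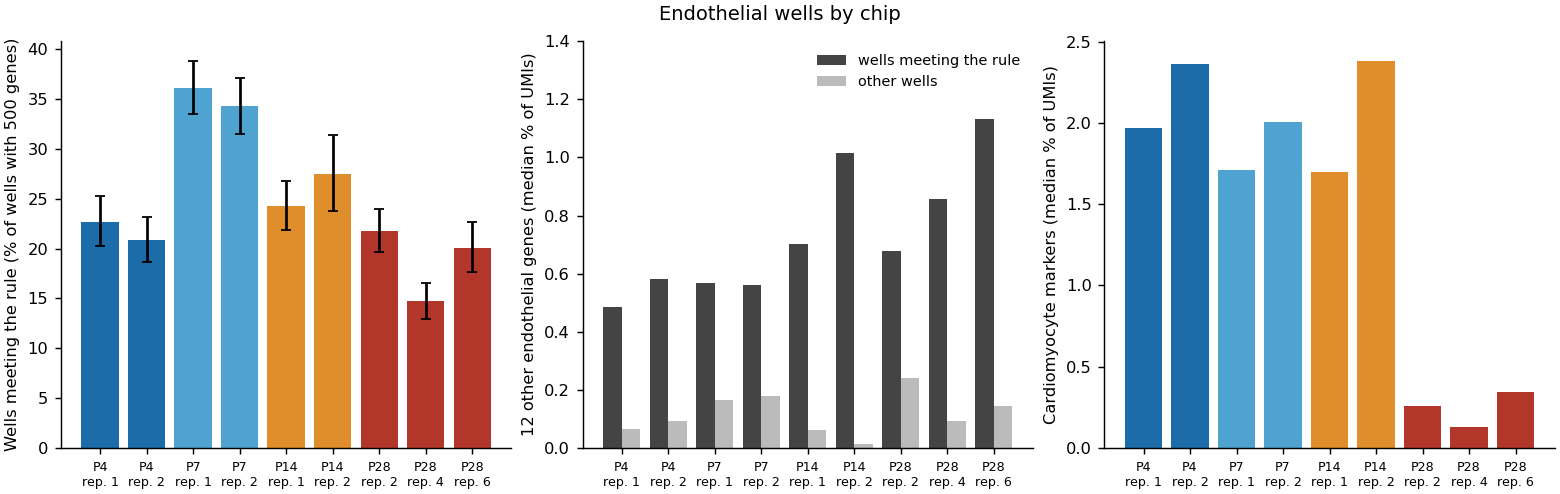
Share of wells with 500 genes that met the rule, with exact 95% intervals (left, % of wells), median share of 12 endothelial genes not used by the rule in the chosen and other wells (middle, % of non-mitochondrial UMIs), and median share of 10 cardiomyocyte markers in the chosen wells (right, %), each by chip. The chosen wells exceed the other wells on all 9 chips in the middle panel, and cardiomyocyte markers are below 0.5% on the 3 P28 chips and above 1.5% on the 6 others.

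The chosen wells made up 21.8% ± 1.30 (SD, n = 2 chips) of wells at P4, 35.2% ± 1.33 at P7 (n = 2), 25.9% ± 2.23 at P14 (n = 2) and 18.8% ± 3.67 at P28 (n = 3). These shares depend on the fractions loaded and on the threshold of the rule, and they are given with no test.

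To ask which genes changed with age, UMIs were summed over the chosen wells of each chip and all 4 stages entered 1 edgeR quasi-likelihood fit. Across 14418 genes tested, 0 passed an adjusted p of 0.05 between P7 and P4, 186 (1.29%) between P14 and P7, 136 (0.943%) between P28 and P14, and 264 (1.83%) between P28 and P4. For P7 against P4, 596 genes had an unadjusted p under 0.05, and the Wald test of DESeq2 called 38. Between P14 and P7, 94 genes rose and 92 fell. Between P28 and P14, 36 rose (0.25%) and 100 fell (0.694%), and from P4 to P28, 136 rose and 128 fell (0.888%). The 186 calls became 39 without P7 replicate 1, 60 without P7 replicate 2, 98 without P14 replicate 1, 61 without P14 replicate 2 and 401 without P28 replicate 6. The 136 became 51 without P14 replicate 2, and the 264 became 94 without P4 replicate 1 and 86 without P4 replicate 2. Changes are on the log2 scale with their standard error, and adjusted p-values are from this fit by Benjamini-Hochberg. In sums of wells, fewer cells expressing a gene and less RNA of it per cell cannot be told apart.

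Of 32 genes of the cell cycle, 16 fell between P7 and P14 and 0 rose, against 0.638% of all genes that were lower. Their median change was -4.40, beside -0.06 for all genes. Prc1, which bundles spindle microtubules at cell division, stood at 174 and 413 CPM at P4 and 315 and 386 at P7. It was at 11.6 and 5.80 at P14 and at 27.9, 29.8 and 12.1 at P28. Every P4 and P7 chip lay above every later chip, and Prc1 fell by 5.28 ± 0.64 between P7 and P14 (adjusted p = 0.000822) and by 3.63 ± 0.50 between P4 and P28 (adjusted p = 0.000622). Top2a, the topoisomerase that untangles replicated chromosomes, went from 379 and 277 at P7 to 18.7 on both P14 chips (fell by 4.13 ± 0.66, adjusted p = 0.00393). Birc5, the mitotic protein survivin, fell by 5.37 ± 0.96 in the same step (adjusted p = 0.00792), and Cdk1, the mitotic kinase, went from 59.3 and 37.9 CPM to 1.62 and 0 (adjusted p = 0.0229). Mki67, the common marker of dividing cells, was at 481 and 626 at P7 and 80.5 and 1.29 at P14, a difference that missed the threshold (adjusted p = 0.0517), and its P14 chips lay far apart. Pcna, the sliding clamp of DNA replication, was at 87.5 and 79.4 at P7 and at 41.7 and 69.0 at P14 (adjusted p = 0.645). The division genes Pclaf and Kif4, a kinesin, both outside the list, were at 69.2 to 160 and at 63.2 to 103 at P4 and P7, and at most at 1.29 and 0.645 at P14.

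Between P14 and P28 the cell cycle list had 2 genes higher and 0 lower, against 0.25% of all genes that were higher. Hmmr, a spindle-associated protein, was at 0.970 and 0.645 CPM at P14 and at 13.9, 19.03 and 9.52 at P28 (adjusted p = 0.0246). Tpx2, which activates Aurora A on the spindle, was at 1.94 and 0 at P14 and at 26.9, 15.4 and 30.3 at P28 (adjusted p = 0.0135). No fold is given for either, or for Cdk1 above, since their P14 levels rest on a few UMIs. Over the span from P4 to P28, 9 genes of the list were lower and 0 higher, against 0.888% of all genes that were lower. The median change of the list was -2.198, beside 0.03 for all genes. The count for P14 against P7 was 4 without P14 replicate 2, 8 without P7 replicate 1, 6 with sums per animal, 9 with at least 1000 genes per well and 2 with wells of at least 1% endothelial marker UMIs. The count for P28 against P4 was 4 without P4 replicate 1, 2 without P4 replicate 2, 5 with sums per animal, with at least 1000 genes or with no endocardial gene, 0 with at least 1%, and 16 by DESeq2 or with no filter.

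The promoters of 3 of the cell cycle genes called with the smallest p are shown because the genes moved together. They run from 250 bases before to 50 after the annotated start (RefSeq, GRCm38.p6). Capitals mark CCAAT and TTTGAA on either strand, so that ATTGG and TTCAAA are capitals too. They lie at chr7:80294201-80294500 on the plus strand for Prc1, chr11:99024140-99024439 on the minus strand for Top2a and chr11:40733388-40733687 on the minus strand for Hmmr.
Prc1: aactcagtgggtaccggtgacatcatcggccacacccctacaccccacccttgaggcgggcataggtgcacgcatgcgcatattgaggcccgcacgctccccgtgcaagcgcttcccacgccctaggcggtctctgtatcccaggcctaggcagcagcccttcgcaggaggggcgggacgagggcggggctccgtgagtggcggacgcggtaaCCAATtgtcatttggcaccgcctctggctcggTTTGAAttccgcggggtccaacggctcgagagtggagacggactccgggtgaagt
Top2a: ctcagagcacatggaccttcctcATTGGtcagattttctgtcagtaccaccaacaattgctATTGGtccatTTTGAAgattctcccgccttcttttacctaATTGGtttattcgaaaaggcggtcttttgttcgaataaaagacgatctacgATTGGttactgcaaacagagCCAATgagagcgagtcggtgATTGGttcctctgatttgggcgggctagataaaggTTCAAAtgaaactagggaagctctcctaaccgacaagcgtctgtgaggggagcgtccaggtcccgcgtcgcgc
Hmmr: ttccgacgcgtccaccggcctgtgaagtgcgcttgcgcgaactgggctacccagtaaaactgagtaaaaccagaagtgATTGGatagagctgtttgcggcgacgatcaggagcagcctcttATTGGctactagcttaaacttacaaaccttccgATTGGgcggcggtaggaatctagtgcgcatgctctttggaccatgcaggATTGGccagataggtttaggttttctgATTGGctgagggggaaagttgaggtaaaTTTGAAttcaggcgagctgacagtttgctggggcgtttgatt
CCAAT occurred 1 time in the Prc1 window, 6 times in Top2a and 5 times in Hmmr, and TTTGAA 1, 2 and 1 times. Of the 26 genes of the list with a promoter in the table, 21 held CCAAT and 10 held TTTGAA in at least 1 window. Among all 32851 promoters of 300 bases, 37.4% held CCAAT and 17.9% held TTTGAA. These shares count single promoters, while the list counts genes, some with more than 1 window, so the units differ. The matches are a description of these windows.

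The share of dividing wells was then compared over chips. Each well was thinned to 1000 non-mitochondrial UMIs, and a well counted as cycling with at least 2 UMIs of the cell cycle list. The share was 45.4 and 53.2% on the P4 chips, 54.5 and 56.4% on the P7 chips, 3.37 and 2.63% on the P14 chips, and 18.8, 7.31 and 8.25% at P28. The 4 early chips had 52.4% ± 4.83 and the 5 later chips 8.07% ± 6.46 (SD), a difference of 44.3 percentage points that was positive in every pairing of an early with a later chip. A two-sided exact permutation test over the 9 chips gave p = 0.0159, the smallest that 126 splits allow. Without thinning the shares were 76.1 to 95.2% and 17.1 to 57.1%. For comparison, wells led by CM markers (over 8% of UMIs), whose cells may themselves divide at P4, had 14.7 and 19.4% at P4, 3.70 and 4.35% at P14 and 2.196 to 5.83% on P28 replicates 1, 3 and 5. The P7 chips had only 8 and 15 such wells, and no share is given for them. The endothelial shares at P14 were not above those of CM wells, and no dividing endothelial wells were read from them. Wells led by fibroblast markers had 40.5 to 47.8% at P4 and P7 and 1.79 to 15.6% later.

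**Figure D2:**
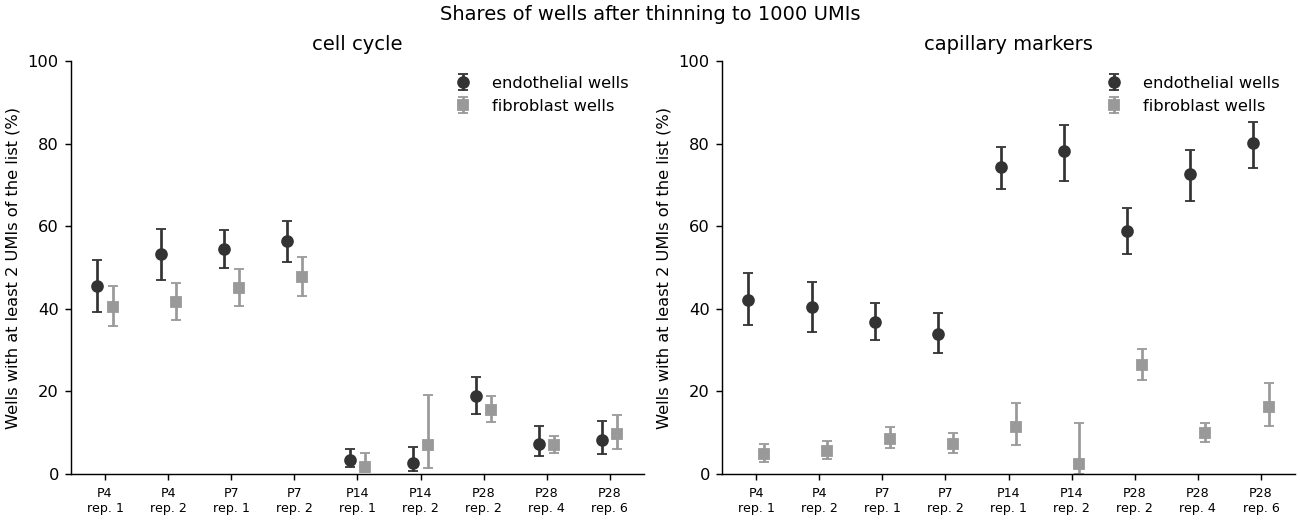
Share of wells (%) with at least 2 UMIs of the cell cycle list (left) and of the capillary list (right) after thinning to 1000 UMIs, by chip, for endothelial (circles) and fibroblast (squares) wells, with exact 95% intervals that cover counting error only. The cycling share is above 45% on the 4 early chips and below 20% on the 5 later ones in endothelial wells, and the capillary share is above 58% on all later chips and below 43% on the early ones.

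Of 10 capillary markers, 5 rose between P7 and P14 and 0 fell, against 0.652% of all genes that rose, with a median change of 2.22. From P4 to P28, 4 rose and 0 fell, against 0.943% of all genes that rose. The median was 1.97 beside 0.03 for all genes. Rgcc, a regulator of the cell cycle that is abundant in capillaries, was at 622 and 533 CPM at P4 and at 317 and 248 at P7. It reached 3490 and 4335 at P14 and stood at 1019, 1812 and 4202 at P28. The P14 and P28 chips all lay above the early chips, and the change was 3.79 ± 0.54 from P7 to P14 (adjusted p = 0.00166) and 2.02 ± 0.47 from P4 to P28 (adjusted p = 0.0309). Timp4, an inhibitor of matrix metalloproteinases, went from 57.2 and 52.9 at P7 to 802 and 813 at P14 and was at 207, 446 and 1277 at P28 (3.96 ± 0.62 over P4, adjusted p = 0.00155). Car4, a carbonic anhydrase on the luminal surface of capillaries, went from 67.9 and 79.5 at P7 to 637 and 657 at P14 (3.13 ± 0.50, adjusted p = 0.00393). Sgk1, a hormone-induced kinase, rose by 2.90 ± 0.50 on the log2 scale in that step (adjusted p = 0.00614) and Cyp4b1, a fatty acid hydroxylase, by 2.87 ± 0.70 (adjusted p = 0.0492). The P14 count was 2 without P7 replicate 1, 3 without P7 replicate 2 and 3 with sums per animal. The P28 count was 0 without P4 replicate 2, 1 without P4 replicate 1, with only the P4 and P28 sums, without wells of mixed content (over 1% CM markers, or another marker set over 0.5 of the endothelial one) or with at least 1% endothelial marker UMIs, and 2 with sums per animal or with at least 1000 genes.

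The share of thinned wells with at least 2 UMIs of the capillary list was 42.2 and 40.4% on the P4 chips, 36.9 and 34.0% on the P7 chips, 74.4 and 78.3% on the P14 chips, and 58.9, 72.6 and 80.1% at P28. In fibroblast wells it was 4.80 to 8.48% at P4 and P7, 11.3 and 2.33% at P14 and 9.89 to 26.4% at P28, and in wells led by CM markers 0 to 15.2%. On every chip the share in endothelial wells was above that in fibroblast wells. The chosen wells were selected in part on Fabp4, a gene of capillaries, and fibroblast wells on other markers. This contrast therefore follows partly from the choice of wells. Shares in wells led by CM markers covered only some of the chips. For the artery and vein lists, endothelial wells had 16.7 to 60.3% and 10.4 to 37.9%, fibroblast wells 24.7 to 74.2% and 10.2 to 34.9%, and wells led by CM markers at most 7.60% and 3.70%. The artery share was below that of fibroblast wells on every chip and the vein shares overlapped, so no arterial or venous wells were counted from them. Mgp, of the artery list, was at 0.277 to 0.378 times the level of the other wells on the P28 chips.

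Genes of fatty acid handling in capillaries moved less evenly. Of 20 genes, 1 rose and 0 fell between P7 and P14, where 0.652% of all genes rose and 0.638% fell. From P4 to P28, 1 rose and 1 fell, against 0.943% and 0.888% of all genes. The list medians were 0.69 and 0.63, beside -0.06 and 0.03 for all genes. The first count was 0 without P7 replicate 1 and 5 without P28 replicate 6, and the second 1 without P4 replicate 1, P4 replicate 2, P7 replicate 1, P28 replicate 4 or P28 replicate 6 and 4 without P28 replicate 2. Lpl, the lipoprotein lipase that capillaries display and muscle cells make, was at 336 and 344 CPM at P7 and 2454 and 1770 at P14 (2.64 ± 0.40, adjusted p = 0.00267). For Lpl the chosen wells did not reach 2 times the level of the other wells on both P14 chips. Cd36, the fatty acid transporter, was at 1752 and 1225 at P7 and 3702 and 5786 at P14, without overlap but short of the threshold (adjusted p = 0.0524). Gpihbp1, which anchors lipoprotein lipase in the capillary lumen, was at 1556 and 3136 at P4 and 1495, 2937 and 6829 at P28, ranges that overlapped (adjusted p = 0.556). Aqp7, a glycerol channel, rose from 3.70 and 14.3 at P4 to 48.3, 65.3 and 106 at P28 (2.997 ± 0.71, adjusted p = 0.0346, lost in 12 of 23 alternatives). Angptl4, a secreted inhibitor of that lipase, fell by 3.21 ± 0.57 from P4 to P28 (adjusted p = 0.00447) and by 2.49 ± 0.57 from P14 to P28 (adjusted p = 0.0395, lost in 15 of 23 alternatives).

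Sprouting genes did not move as a group. Of 16 angiogenic tip genes, 1 rose and 1 fell between P7 and P14, where 0.652% of all genes rose and 0.638% fell. From P4 to P28, 2 rose and 0 fell, against 0.943% of all genes that rose. Both counts were 0 when either chip of the earlier stage was left out, and the first also without either P14 chip. The first was 1 without P4 replicate 1 and the second 1 without P28 replicate 4 or 6. Apln, the ligand of the apelin receptor and a tip cell marker, was at 82.3 and 119 CPM at P7 and at 10.7 and 7.09 at P14 (fell by 3.48 ± 0.71, adjusted p = 0.0191). At P28 it was at 53.7, 31.9 and 12.1, between both stages. Pdgfb, which recruits pericytes to vessels, moved the other way, from 12.2 and 6.01 at P7 to 82.1 and 45.1 at P14 (2.81 ± 0.65, adjusted p = 0.0356) and to 90.9, 96.6 and 220 at P28. Esm1, a secreted proteoglycan of tip cells, had no UMI on the P4 chips and 2.32, 42.0 and 9.52 at P28 (adjusted p = 0.0226), and no fold change is given against a stage at 0. Among 19 tested secreted factors of the endothelium, 1 rose from P14 to P28, against 0.25% of all genes. It was Igfbp5, a binding protein of insulin-like growth factors. Igfbp5 went from 44.3 and 9.67 to 161, 159 and 333 (2.98 ± 0.65, adjusted p = 0.0306), and P4 replicate 1 already had 310.5. That call was lost without P14 replicate 2 or P28 replicate 6. None of 14 basement membrane genes passed in any of the 4 comparisons, and none of 14 junction and surface genes did.

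**Figure D3:**
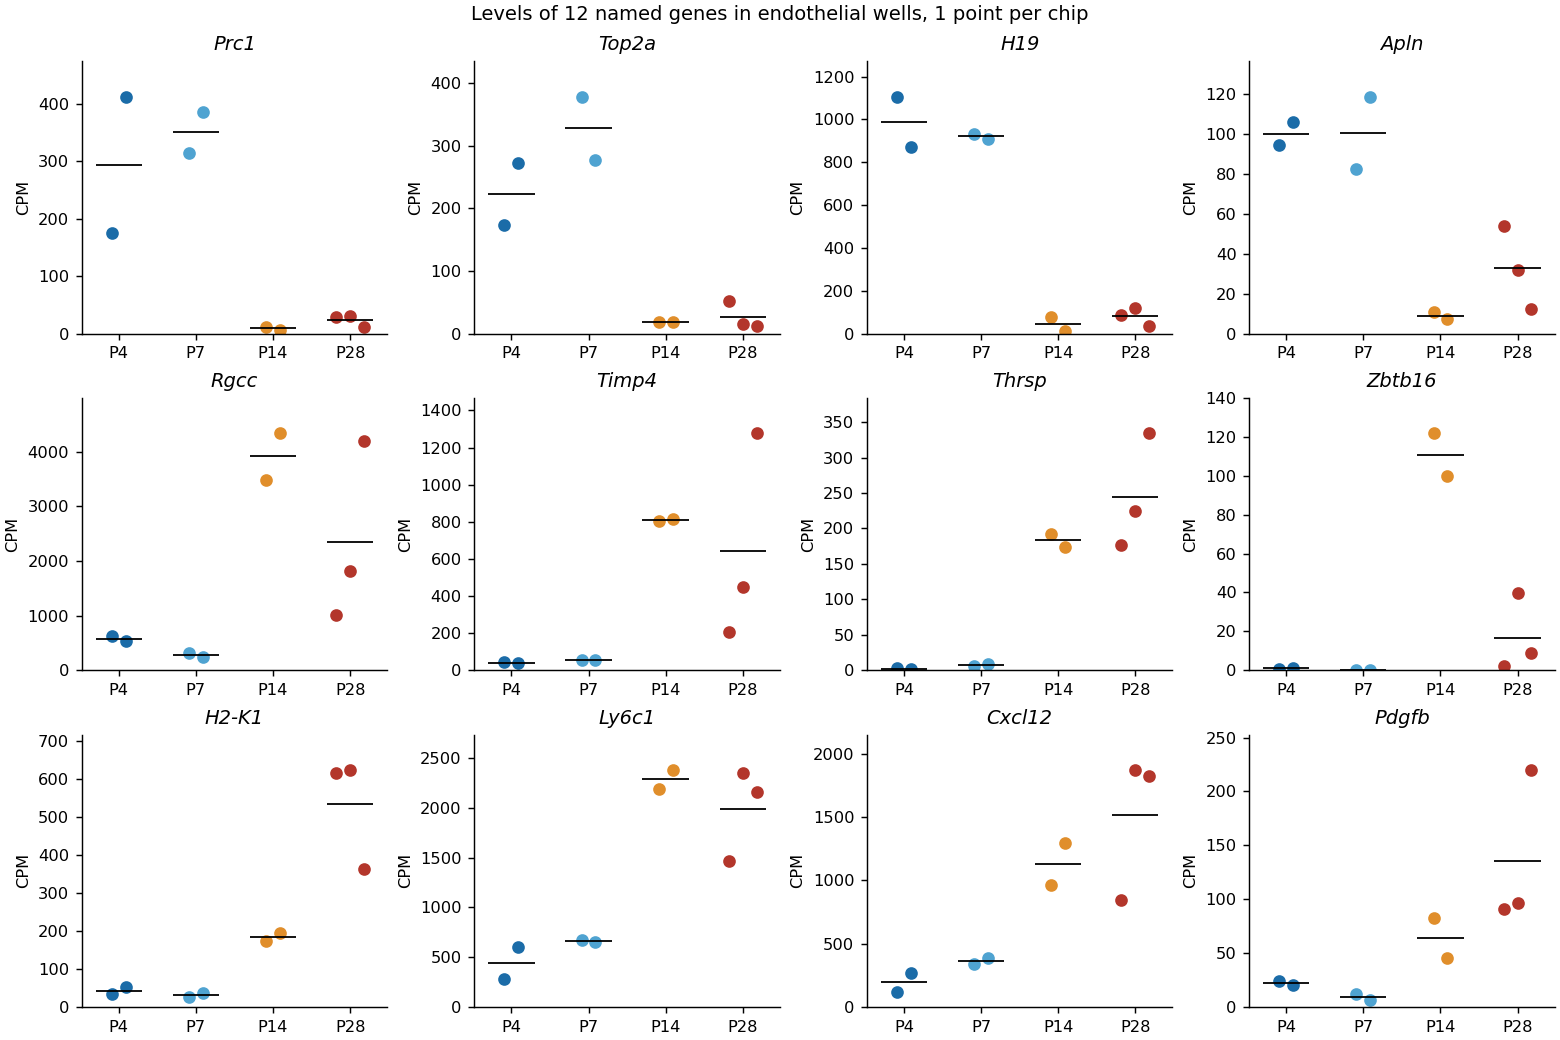
CPM (TMM-scaled) of 12 named genes in endothelial wells by stage, 1 point per chip, with the stage mean as a bar. Prc1, Top2a and H19 are high at P4 and P7 and low at P14 and P28, Rgcc and Timp4 are higher on every P14 and P28 chip than on any earlier chip, and H2-K1 is highest at P28.

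Among arterial genes, Gja4, the connexin of arterial and capillary junctions, fell from 44.1 and 58.3 CPM at P7 to 2.91 and 1.29 at P14 (log2 change -4.52 ± 0.93, adjusted p = 0.0207), a call lost without any 1 of these 4 chips. Cxcl12, a chemokine of arteries and capillaries, was at 119 and 268 at P4, 341 and 389 on the P7 chips, 963 and 1291 at P14, and 842, 1870 and 1821 at P28. All P28 chips lay above both P4 chips (2.96 ± 0.47, adjusted p = 0.00158). Sox17, a transcription factor of arteries, did not pass from P4 to P28 (1.46 ± 0.57, adjusted p = 0.218). Of 14 artery markers, 2 rose from P4 to P28, against 0.943% of all genes. These were Cxcl12 and Mgp (a count of 0 without P4 replicate 1, 1 without P4 replicate 2 or P28 replicate 4). Of 8 tested vein markers none passed.

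Of 26 tested transcription factors of the endothelium, 4 rose between P7 and P14 and 0 fell, against 0.652% of all genes that rose, and 22 did not pass. The median of the list was 0.60 beside -0.06 for all genes, and none of the 26 passed from P4 to P28. Sox18, a factor of vessel identity, went from 36.6 and 19.7 CPM at P7 to 345 and 159 at P14, but P4 replicate 1 already had 145 (3.17 ± 0.63, adjusted p = 0.0167). Klf4, which responds to shear stress, went from 71.8 and 54.1 to 407 and 318 (2.53 ± 0.53, adjusted p = 0.0214). Klf9, a target of thyroid and glucocorticoid hormones, went from 48.7 and 42.9 to 354 and 333 (2.91 ± 0.64, adjusted p = 0.0278). Epas1, the hypoxia factor HIF-2 alpha, rose by 1.78 ± 0.40 on the log2 scale (adjusted p = 0.0305), and Klf2, another factor of shear stress, missed the threshold (1.795 ± 0.45, adjusted p = 0.0516). The list count was 0 without P7 replicate 1, P7 replicate 2 or P14 replicate 1, 1 without P14 replicate 2, 1 with only the NCM wells of P14 or with sums per animal, and 0 without wells of mixed content or with at least 1% endothelial marker UMIs. Of 18 growth factor and Notch receptors, 1 rose from P4 to P28, against 0.943% of all genes. It was the receptor phosphatase Ptprb that restrains Tie2 signalling (1.63 ± 0.37, adjusted p = 0.0262). That call was lost without P4 replicate 1, P4 replicate 2 or P7 replicate 1. Flt1, the decoy receptor for VEGF, was at 232 and 365 at P4 and 511, 678 and 840 at P28 (adjusted p = 0.121).

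Of 22 genes of antigen presentation and the interferon response, 11 rose from P4 to P28 and 0 fell, against 0.943% of all genes that rose, with a median change of 2.21. H2-K1, a classical MHC class I chain, was at 33.0 and 51.7 CPM at P4 and 26.4 and 35.5 at P7. It was at 175 and 195 at P14 and at 617, 624 and 362 at P28, so that the stages after P7 did not overlap with each other or with the early ones (3.65 ± 0.47 from P4 to P28, adjusted p = 0.000336). B2m, the light chain of MHC class I, rose by 2.65 ± 0.45 on the log2 scale (adjusted p = 0.00292) and H2-D1 by 1.94 ± 0.40 (adjusted p = 0.012). Ly6c1 and Ly6a, surface proteins of mature endothelium, rose by 2.18 ± 0.40 (adjusted p = 0.0049) and 2.22 ± 0.44 (adjusted p = 0.00979). Tgtp2 and Gvin1, interferon-induced GTPases outside the list, rose by 5.62 ± 0.78 (adjusted p = 0.000622) and 3.16 ± 0.47 (adjusted p = 0.00115). Ly6c1, Ly6a, Tgtp2 and Gvin1 were at least 2 times as high as in the other wells on every P28 chip. H2-K1, H2-D1 and B2m were not. In a fit of fibroblast wells alone, 13 of the 22 list genes rose from P4 to P28, but the share over all genes was not computed there. MHC class II genes rose as well, at levels below those of the other wells. H2-Aa was at 0.246 and 0 at P4 and 156, 91.9 and 40.7 at P28, where the chosen wells held 0.171 to 0.246 times the level of the other wells of the same chip, and Cd74, the class II chaperone, held 0.242 to 0.602 times. Macrophage markers were higher in the P28 wells too (above), and their part in this result was not tested. The list count was 4 without P4 replicate 1 or without P4 replicate 2, 5 without wells of mixed content or with at least 1% endothelial marker UMIs, and 18 by DESeq2 or with at most 5000 UMIs per well.

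Of 13 tested imprinted and fetal growth genes, 3 fell between P7 and P14, against 0.638% of all genes, and 2 from P4 to P28, against 0.888%. None rose in either by edgeR, 10 and 11 did not pass, and the list medians were -1.55 and -1.60. H19, an imprinted noncoding RNA of fetal tissue, was at 1107 and 870 CPM at P4 and 932 and 911 at P7, then at 77.3 and 12.9 at P14 and 85.5, 121 and 37.2 at P28. It fell by 4.33 ± 0.67 from P7 to P14 (adjusted p = 0.00316). Igf2, the fetal growth factor beside it in the genome, fell by 2.25 ± 0.38 from P4 to P28 (adjusted p = 0.00282), with 839 and 638 at P4, 512 and 533 on the P7 chips, 373 and 237 at P14, and 153, 200 and 110 at P28. Mest and Plagl1, both imprinted, fell by 3.81 ± 0.89 (adjusted p = 0.0395) and 4.16 ± 0.95 (adjusted p = 0.0348) from P7 to P14. The count of 3 became 1 without P4 replicate 1, P4 replicate 2, P7 replicate 1 or P14 replicate 2, with H19 passing in all 23 alternatives. None of 15 glycolysis genes passed in any comparison. Of 18 immediate early and heat shock genes, which respond to cell handling, Btg2 rose between P7 and P14 (adjusted p = 0.047) and Egr1 from P4 to P28 (adjusted p = 0.0356), calls that leaving out either chip of P7 or of P4 ended. Over all genes, 0.652% and 0.943% rose in the same comparisons. The share of thinned wells with at least 2 UMIs of the list was 41.8 to 59.9% from P4 to P14 and 68.4 to 82.6% at P28.

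**Figure D4:**
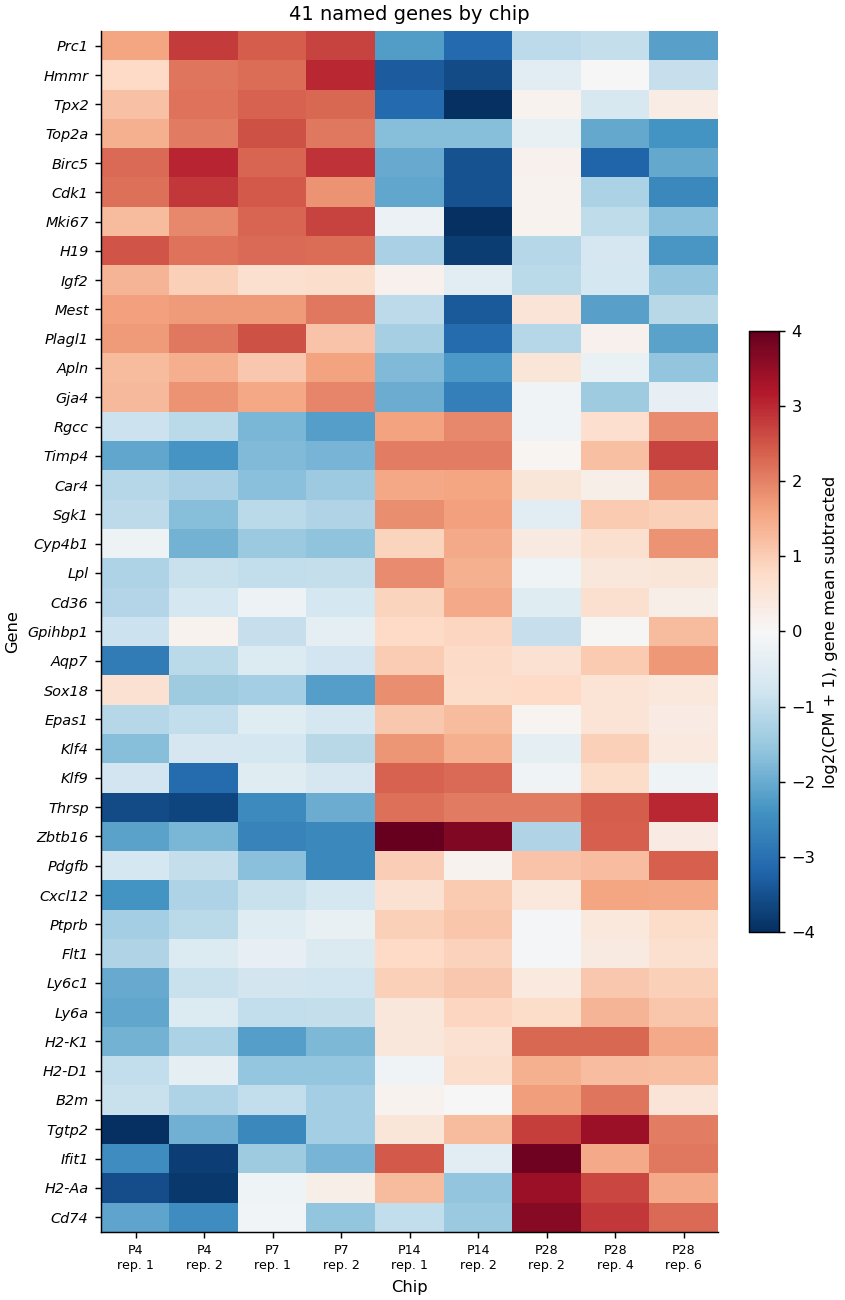
log2(CPM + 1) of 41 named genes in endothelial wells by chip, with each gene's mean over the 9 chips subtracted (red above, blue below). The division and imprinted genes at the top are red on the 4 early chips, the capillary genes in the middle are red on the P14 chips, and the MHC and interferon genes at the bottom are red on the P28 chips.

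The genes with the smallest p outside these lists were read against the other wells of the same chip. Of 129 genes that rose from P4 to P28 and were not used by the rule, 29 were at least 2 times as high in the chosen wells as in the other wells on every P28 chip, and 32 were at most 0.5 times as high. Of 94 genes that rose from P7 to P14, 45 were at least 2 times as high on both P14 chips and 0 at most 0.5 times. Of genes that fell, 5 of 127 (P4 to P28) and 4 of 91 (P7 to P14) reached 2 times at the earlier stage. There 28 and 8 were at most 0.5 times as high. Of 30 that rose from P14 to P28, 0 reached 2 times and 13 were at most 0.5 times. Ratios were taken in the stage where the gene was higher, and the share over all tested genes was not computed. Thrsp (chromosome 7, 97412938 to 97417730, minus strand, protein coding, GRCm38), a nuclear protein of lipid synthesis that answers to thyroid hormone, led the first group. It was at 2.46 and 2.24 CPM at P4, 6.13 and 9.47 on the P7 chips, 192 and 174 at P14, and 177, 224 and 334 at P28. It was 11.6 to 16.2 times as high in the chosen wells as in the others at P28, and rose by 6.69 ± 0.60 on the log2 scale from P4 (adjusted p = 1.6e-05). Named after their values were seen, the water channel Aqp1 (2.59 ± 0.46, adjusted p = 0.00418) and Podxl, a sialomucin of the vessel lumen (1.77 ± 0.41, adjusted p = 0.0272), also rose from P4 to P28 with at least 2 times the level of other wells. From P7 to P14 the same held for Id1, a target of BMP signalling (2.77 ± 0.50, adjusted p = 0.00864), Depp1, a target of FOXO factors (3.35 ± 0.55, adjusted p = 0.0042), and Adh1, an alcohol dehydrogenase (4.57 ± 0.76, adjusted p = 0.00464). Nectin2, an adhesion protein, fell by 2.57 ± 0.59 from P4 to P28 (adjusted p = 0.0265) and was at 2.64 to 3.83 times the level of other wells at P4. Zbtb16, a glucocorticoid-induced transcription factor, was at 0.212 and 0.306 at P7 and 122 and 99.9 at P14 (adjusted p = 0.00267, with no fold given against so few UMIs), and at P28 at 2.32, 39.5 and 8.66. Zbtb16 was not among the 45 genes at least 2 times as high in the chosen wells on both P14 chips.

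Other leading genes are known from other cell types, and levels relative to the other wells are given for Wfdc17, Gsn and Pi16 only. Wfdc17, a macrophage gene, was at 0 and 0.149 CPM at P4 and 153, 123 and 70.1 at P28, where the chosen wells held 0.0632 to 0.153 times the level of the others. Gsn and Pi16, both abundant in fibroblasts, rose by 4.16 ± 0.56 (adjusted p = 0.000554) and 5.69 ± 0.83 (adjusted p = 0.000975) from P4 to P28, at 0.272 to 0.437 and 0.418 to 0.697 times the level of the others. Acta2, the actin of smooth muscle, fell by 3.65 ± 0.48 (adjusted p = 0.000513). Apoe, abundant in macrophages, rose by 2.52 ± 0.41 from P14 to P28 (adjusted p = 0.00314). Among genes outside the CM markers whose chips did not overlap, the muscle genes Myl7 and Tnni1 led the falls from P4 to P28. Their means went from 906 and 697 CPM to 3.29 and 1.68 (adjusted p = 2.75e-05 and 7.63e-05). The muscle genes Hrc, Trdn and Ryr2 of the sarcoplasmic reticulum fell both from P4 and from P14 to P28, as did 8 and 9 of the 10 CM markers. The comparison of P28 with P14 was repeated with fewer wells of high CM marker share. Wells with at most 4% CM markers gave 94 calls, 87 of them among the 136. Only the NCM wells of P14, which left 150 and 42 of 297 and 152 wells, gave 14 calls, 11 of them among the 136, and leaving out wells of mixed content gave 6 calls, 5 of them among the 136. These limits lower CM RNA and the number of wells together, and the part of each was not tested. For P14 against P7 the same limit to NCM wells gave 172 calls, 108 of them among the 186, and leaving out erythroid markers, of which 5 of 5 had risen, gave 171, 170 of them among the 186.

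The changes from P4 to P28 were set beside those in 3501 wells led by fibroblast markers on the same chips. In 1 fit of 18 sums with the chip as a block, 0 of 17271 genes differed between endothelial and fibroblast wells in this change by edgeR at an adjusted p of 0.05 (729 at an unadjusted p under 0.05). No change from P4 to P28 was thus shown to be particular to endothelial wells, in a fit with 5 residual degrees of freedom. The cell cycle list had a median of -2.64 in fibroblast wells, the imprinted list -1.99, the MHC and interferon list 2.87 and the capillary list 1.78. Capillary genes in fibroblast wells stood at a low level, with 9.89 to 26.4% of thinned P28 wells positive against 58.9 to 80.1%. Thrsp changed by 2.67 ± 1.21 in fibroblast wells, and its difference between the cell types, 3.88 ± 0.94, did not pass (adjusted p = 1). Cxcl12 changed by 1.44 ± 0.56 there.

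**Figure D5:**
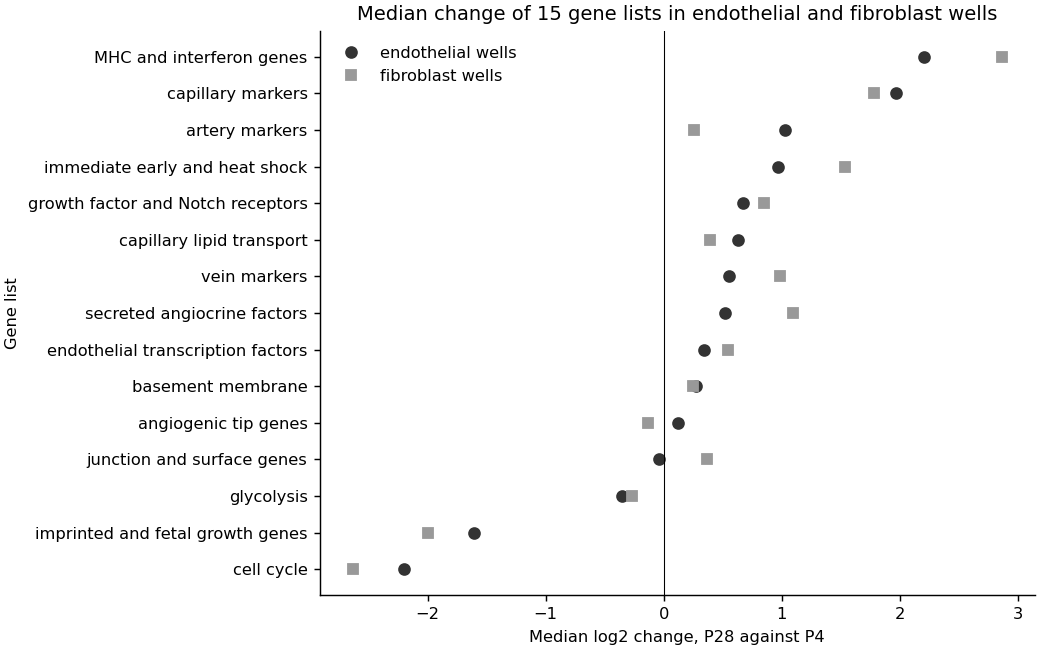
Median log2 change from P4 to P28 of the genes of 15 lists in endothelial (circles) and fibroblast (squares) wells. Cell cycle genes lie lowest in both (-2.198 and -2.64) and MHC and interferon genes highest (2.21 and 2.87).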

How the data were processed

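Hearts were digested and cells dispensed on ICELL8 chips, imaged and sequenced. Per the submitters' processing notes and the study's methods, reads were aligned to mm10 with STAR 2.5.2b, assigned to genes with featureCounts (Subread 1.4.6-p1) and collapsed by UMI. The matrices deposited by the authors hold raw UMI counts per gene and well, which were used as they are. Control wells, spike-ins, the reporter and mitochondrial genes stayed out of sums and tests. The wells and gene lists were chosen with earlier results of these data known, and the wells were selected on the genes of the rule, whose values carry no test. UMIs of the chosen wells were summed per chip and fitted with edgeR 4.0.16 in R 4.3.3 (TMM, filterByExpr, Benjamini-Hochberg threshold 0.05, 5 residual degrees of freedom, common coefficient of variation 0.632). Each standard error is the absolute log2 change over the root of F. The fit was also run on counts simulated from its own means and spread. Those counts held no shared mice and no RNA of other cells, so the run says nothing about these limits. Genes were named by list and by the smallest p per direction (10 for P28 against P4, 5 for neighbouring stages) among called genes whose chips did not overlap, without rule genes, CM and erythroid markers, sex-linked genes and models without a descriptive symbol. Not every gene chosen in this way is given in the text. Ratios to other wells used a pseudocount of 1 CPM. Shares carry exact Clopper-Pearson intervals of 95% that cover counting error only. The authors selected single live cells by imaging, and no doublet caller was run. Positions and symbols came from GENCODE vM21 (GRCm38). Knockdown samples and the P28 chips of replicates 1, 3 and 5 were not used in the comparisons. DESeq2 1.42.0, other filters, other well limits, sums per animal and leaving out each chip were alternatives.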

Additional observations from a re-analysis of the deposited data

Results flagged for a closer look

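Wells that met the endothelial rule also occurred on the 3 P28 chips that the comparisons left out, with 294 on P28 replicate 1, 22 on replicate 3 and 39 on replicate 5. Their median CM marker share was 4.28, 7.25 and 7.68%, above the 0.126 to 0.346% of the P28 chips used.

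The TDtomato reporter, which the comparisons do not use and whose Cre is driven by a CM gene, had at least 1 UMI in 25.9 and 44.4% of the endothelial wells of the P4 chips, 25.0 and 36.5% of those at P7, 21.9 and 21.1% at P14, and 18.5, 20.4 and 14.0% on P28 replicates 2, 4 and 6. In wells led by CM markers the share was 64.7 and 88.7% (P4), 87.5 and 93.3% (P7, only 8 and 15 wells) and 63.0 and 37.0% (P14). On P28 replicates 1, 3 and 5 it was 41.7, 91.7 and 76.8% of 120, 592 and 488 such wells. Depth differed between these wells and was not matched. Without TMM scaling, the level was 55.1 to 166 CPM in endothelial wells of the 9 chips. In the CM wells of P4 to P14 it was 145 to 457.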

How the results depend on the processing

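The difference in cycling wells (44.3 percentage points) was positive in all alternatives run, with 43.0 to 47.0 when 1 chip was left out, 31.3 with wells of at least 1% endothelial marker UMIs, 27.5 with at least 4 UMIs for a cycling well and 54.0 when thinned to 2000 UMIs. Its p was the smallest the splits allow each time and so says nothing about stability. Counts of genes called moved more. For P7 against P4 they were 50 with no filter except 1 UMI, 38 with DESeq2, 9 with only the 2 stages, 3 with sums per animal, 2 with wells of at least 1% endothelial marker UMIs, with at most 5000 UMIs per well or without erythroid genes, 1 with at least 1000 genes, with no endocardial gene or with at most 4% CM markers, and 0 to 7 without 1 chip. For P14 against P7 (186) they were 437 with no filter, 801 with DESeq2, 93 with 1000 genes, 26 with at least 1%, 298 with at most 5000 UMIs, 55 with sums per animal, and 39 to 401 without 1 chip. For P28 against P14 (136) they were 401, 634 and 64 with no filter, DESeq2 and only the 2 stages, 86 with 1000 genes, 20 with at least 1%, 88 with no endocardial gene, 6 without mixed wells, 231 with at most 5000 UMIs, 14 with NCM wells of P14 only, and 51 to 179 without 1 chip. For P28 against P4 (264) they were 605 with no filter, 874 with DESeq2, 56 with at least 1%, 120 without mixed wells, 153 with NCM wells of P14 only, and 86 to 338 without 1 chip. The cause of these moves was not tested, except that the alternatives with fewer wells or chips have fewer UMIs. The limits on P14 fractions, CM markers and erythroid genes were added after seeing the data. Of 83 called values of named genes, 10 passed in all 23 alternatives. The sign turned for Pcna from P7 to P14 with at least 1% (0.73) and for Gpihbp1 from P4 to P28 without P28 replicate 6 (-0.10, with -0.10 to 1.24 over the chips left out), neither of which passed. No paired analysis was possible because the labels give no replicate numbers, and those used here follow accession order and only name the chips.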
